A study of Mus musculus with 8 samples.

Results

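The comparison set 4 pools of mouse embryonic cortical cells that received siFoxO6-3 against 4 pools that received siFoxO6-2, 2 small interfering RNAs (siRNAs) aimed at the same gene, Foxo6. Its members were all 8 two-colour arrays of the study, 4 with FoxO6#3 and 4 with FoxO6#2 in the sample name, and all gene probes on them. On every array the siRNA pool was hybridised against a single pool of cells that had received a scrambled, non-targeting siRNA. A pool's log2 ratio to that scrambled pool carries whatever was particular to the reference, whereas the difference between the siRNAs does not, because the reference stands on both sides. Both groups and the reference came from C57/BL6 embryos given siRNA and a GFP vector by in utero electroporation at E14.5, and the cortex was taken, dissociated and sorted at E16.5 (E, embryonic day). Cortices were pooled, the pools of each siRNA are described as independent in the labels, and the number of embryos per pool, the sorting gate and the promoter of the GFP vector were not given in the sources used here. Within each siRNA, replicates 2 and 4 had the siRNA pool in the red dye Cy5, and replicates 1 and 3 had it in the green dye Cy3. The comparison shows where pools given 1 or the other of 2 reagents against 1 target differed, at this time and in these pools. The pools also differed in sex-linked transcripts, whose values are given further below.

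An siRNA is a short RNA duplex of which 1 strand, the guide, is loaded into an Argonaute protein and directs cleavage of a fully complementary messenger RNA. The guide can also lower messenger RNAs that match only its seed, the bases near its 5′ end, in the manner of a microRNA, so siRNAs of different sequence against the same target can act on different sets of further messages. Foxo6 encodes a forkhead transcription factor of the FoxO family, which acts downstream of insulin and growth factor signalling and is expressed in the developing and adult brain. At these ages apical progenitors, the radial glia, divide at the ventricular surface, and their neuronal progeny migrate outward to the cortical plate. The title of the series ties Foxo6 to Plxna4, a plexin receptor for semaphorin guidance cues, in that migration.

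The siRNAs are shown because the groups were defined by them. The labels give 21 letters for each, of which the first 2 are unspecified, and the 19 specified bases, 5′ to 3′, were as follows, with capitals on the 7 bases that pair with bases 2 to 8 of the opposite strand.
siFoxO6-2: acaugccagugACGACUAc
siFoxO6-3: ccaucagccuuAUGACGCu
The opposite strands therefore carried the seeds UAGUCGU (siFoxO6-2) and GCGUCAU (siFoxO6-3), and 0 of 1679 mouse mature microRNAs in RefSeq had either seed. Which strand served as guide was not stated. Laid side by side without a shift, the 19-base cores had the same base at 8 positions, the longest shared run was 5 bases, and G and C made up 52.6% of each.

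Each array held 45220 spots, 41174 of them gene probes, and after the brightest probe was taken for each gene symbol 25310 genes and unnamed probes were tested. The median signal of the siRNA channel ran from 58.0 to 123 over local backgrounds of 44 to 54, and 72.9% to 87.2% of probes exceeded the empty spots there. Markers of cortical neurons (Neurod6, Tbr1, Dcx, Tubb3, Neurod2) and of progenitors (Pax6, Sox2, Eomes, Nes) were above the empty spots on all 8 arrays. With each gene's dye term removed, the correlation across genes was 0.23 to 0.83 between siFoxO6-2 pools, 0.20 to 0.67 between siFoxO6-3 pools and 0.03 to 0.74 between pools of different siRNAs. Those values describe only which pools stood apart, since all 8 share the reference. siFoxO6-2 replicate 3 and siFoxO6-3 replicate 4 were least like the other pools and most like each other for their part (0.61), so results are also given without them where that matters. They also had the lowest median siRNA-channel signals, 74.0 and 58.0 in turn, against 93.5 to 123 in the other pools. The part of this lower signal in their values was not tested.

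**Figure D1:**
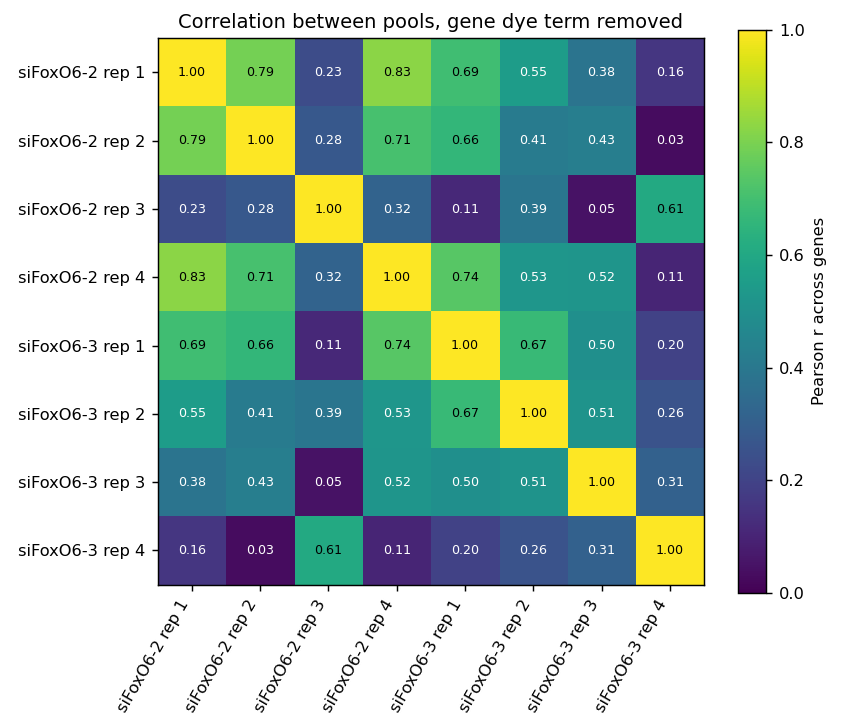
Pearson correlation across 25310 genes and unnamed probes between the log2 ratios of the 8 pools after each gene's dye term was removed (colour scale from 0 to 1; each cell prints its value). siFoxO6-2 replicate 3 and siFoxO6-3 replicate 4 correlate at 0.61 with each other and at 0.39 or less with every other pool.

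The targeted gene came first. In replicates 1 to 4 in turn, the order used throughout, the log2 ratio of Foxo6 to the scrambled pool was -0.88, -1.21, -0.40 and -1.30 with siFoxO6-2 and -1.36, -2.31, -1.21 and -1.74 with siFoxO6-3. All 8 values lay below 0, siFoxO6-3 replicate 2 was the lowest and siFoxO6-2 replicate 3 the highest, and the groups overlapped, since siFoxO6-2 replicates 2 and 4 reached the range of siFoxO6-3. Foxo6 thus stood on average at 51.8% of the scrambled level with siFoxO6-2 and at 31.8% with siFoxO6-3. The difference, siFoxO6-3 minus siFoxO6-2, was -0.71 (SE 0.15, 95% interval -1.05 to -0.36), and it did not pass the threshold over all genes (limma adjusted p = 0.312). It was -0.77 among the arrays with the siRNA pool in Cy5 and -0.64 among those with it in Cy3. An exact two-sided permutation test over the 35 distinct splits of the 8 arrays gave p = 0.0857. The smallest p that this test allows is 0.0286. It used ratios with the dye effect left in and did not keep the dye orientations apart. Within each orientation, every siFoxO6-3 pool was below every siFoxO6-2 pool. Foxo6, on chromosome 4 (GRCm38.p6, 120267078 to 120287261), had 1 probe on the array.

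Of the 25310 genes and unnamed probes, 1 differed between the siRNAs at a Benjamini-Hochberg adjusted p under 0.05, or 0.00395%. That gene was Sufu, the suppressor of fused, which binds the Gli transcription factors and restrains Hedgehog signalling. Its log2 ratio was -1.20, -1.48, -1.11 and -1.55 with siFoxO6-2 and -0.15, -0.40, 0.21 and -0.41 with siFoxO6-3. All 4 siFoxO6-2 pools stood far below the scrambled pool and below all 4 siFoxO6-3 pools, of which siFoxO6-3 replicate 3 was the highest. Sufu was higher with siFoxO6-3 by 1.15 (SE 0.08, 95% interval 0.95 to 1.35, limma adjusted p = 0.0445), that is 2.22-fold, and the difference was 1.11 and 1.19 within the Cy5 and the Cy3 orientation. The call rested on 1 of 3 probes: a dimmer probe, above empty spots on all 8 arrays, differed by -0.02 and the dimmest, above them on 2 arrays, by -0.04. The mean of the 3 probes was 0.36 and not called, and the call was lost without siFoxO6-2 replicate 1, 2 or 4 or siFoxO6-3 replicate 1, 2 or 4, with differences from 1.12 to 1.21 and adjusted p from 0.0703 to 0.441. Sufu lies on chromosome 19 (GRCm38.p6, 46396896 to 46488804).

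Other genes of the Hedgehog pathway were looked up after Sufu had been seen, and 12 of 13 listed were measured. None but Sufu passed the test. The signal transducer Smo stood at -0.47, -0.36, -0.20 and -0.47 with siFoxO6-2 and -0.03, -0.03, 0.14 and 0.00 with siFoxO6-3, without overlap (difference 0.39, adjusted p = 0.288). The transcription factors Gli2 (0.27) and Gli3 (0.32) and the co-receptors Gas1 (0.37) and Cdon (0.78) were higher in the mean with siFoxO6-3. Gli3, Gas1 and Cdon overlapped between the groups. Gli3 differed by -0.10 among the Cy5 arrays and 0.73 among the Cy3 arrays, and siFoxO6-3 replicate 4 (-2.22) was its lowest pool. For Cdon, siFoxO6-3 replicate 4 (-1.26) lay inside the siFoxO6-2 range, and a dim second probe differed by 0.11. Ptch1 (-0.05) and Gli1 (0.04), which are targets of the pathway in many tissues, the co-receptor gene Boc (-0.07) and the Gli regulator Kif7 (0.07) differed by less than 0.1, below any call. Hhip was above the empty spots on 4 of the 8 arrays and the ligand gene Shh on 6, so their values (0.01 and -0.03) are at or near background and carry little.

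Below the threshold, 1838 genes (7.26%) had an unadjusted p under 0.05, 1013 higher with siFoxO6-3 (4.00%) and 825 lower (3.26%). Differences past 1.5-fold were found for 162 genes in the higher and 136 in the lower direction, and differences past 2-fold for 10 and 12. The 95% interval of a gene's difference had a median half-width of 0.19 on the log2 scale, and 0.13 to 0.46 from the 10th to the 90th percentile of genes. The values that follow are given as measured and, unless stated, did not pass the adjusted threshold.

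Of the bright genes with the smallest p, Dct, the melanin synthesis enzyme dopachrome tautomerase, had the largest difference. Its log2 ratio was -0.10, -0.45, 0.40 and 0.01 with siFoxO6-2 and 1.56, 1.48, 1.11 and 1.16 with siFoxO6-3. The siFoxO6-3 pools all lay above every siFoxO6-2 pool, which spread around 0, and the difference was 1.36 (SE 0.18, adjusted p = 0.16). A second Dct probe differed by 0.54, and its siFoxO6-3 replicates 3 and 4 were within the range of siFoxO6-2. The other 7 melanin synthesis genes measured lay between -0.06 and 0.02.

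Tyms, thymidylate synthase, which supplies thymidine nucleotides for DNA replication, stood at -0.65, -0.39, -0.59 and -0.47 with siFoxO6-2 and -0.01, 0.18, 0.19 and 0.14 with siFoxO6-3. The groups were well apart, with a difference of 0.65 (SE 0.06, adjusted p = 0.107), and 3 further probes of sufficient brightness gave 0.49, 0.52 and -0.11. Fam20b, a xylose kinase of proteoglycan synthesis (0.67), Cnih, now Cnih1, a cargo receptor of the early secretory pathway (0.69), Tmem48, now Ndc1, a nuclear pore membrane protein (0.92), Cstf2t, a polyadenylation factor (0.67), and Etl4 (0.86) were also higher with siFoxO6-3 in all 4 pools than in any siFoxO6-2 pool. For Etl4 and Fam20b the other probes were near 0, from -0.07 to 0.08. Scrg1, first described as a scrapie-responsive gene, had 0.18, -0.05, 0.22 and 0.22 with siFoxO6-2 and 0.97, 0.97, 0.98 and 1.50 with siFoxO6-3, and siFoxO6-3 replicate 4 was the highest by far (difference 0.96, adjusted p = 0.205). Hist1h1c, now H1f2, a linker histone, differed by 0.76 and its second probe by 0.75.

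In the other direction, Ctss, the lysosomal protease cathepsin S, stood at 1.80, 1.75, 1.71 and 1.14 with siFoxO6-2 and 0.65, 0.36, 0.51 and 0.43 with siFoxO6-3. Every siFoxO6-2 pool was above every siFoxO6-3 pool, with siFoxO6-2 replicate 4 the nearest to the other group. The difference was -1.12 (SE 0.13, adjusted p = 0.122), and it was called without siFoxO6-2 replicate 4 (-1.25, adjusted p = 0.0473). Atp6v1h, a subunit of the proton pump that acidifies lysosomes, had 0.22, 0.42, 0.25 and 0.65 with siFoxO6-2 and -0.36, -0.19, -0.39 and -0.36 with siFoxO6-3 and a difference of -0.71, with -0.83 on its second probe. Tmem59, a membrane protein of the Golgi and endosomes, had 0.78, 0.57, 0.87 and 0.68 with siFoxO6-2 and 0.26, 0.07, 0.09 and 0.03 with siFoxO6-3, a difference of -0.61 and -0.44 on its second probe. Lower with siFoxO6-3 in every pool were also 6430598A04Rik, now Nyap1, a neuronal adaptor of PI3K signalling (-0.64), Tram1l1 (-0.61), Bend5 (-0.59), Errfi1, a feedback inhibitor of the EGF receptor (-0.36), and 4933433P14Rik, now Gskip, an anchoring protein for the kinase GSK3 (-0.35). D0H4S114, now Nrep, a neuronal protein linked to regeneration, differed by -1.09 and its second probe by -1.08, and the X-linked gene Xlr4b by -0.95 with overlap. The mean of the 2 Xlr4b probes differed by only -0.46. Adjusted p ran from 0.107 to 0.160 for Atp6v1h, Tmem59, Nyap1, Tram1l1, Bend5, Errfi1 and Gskip, and was 0.453 for Nrep.

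**Figure D2:**
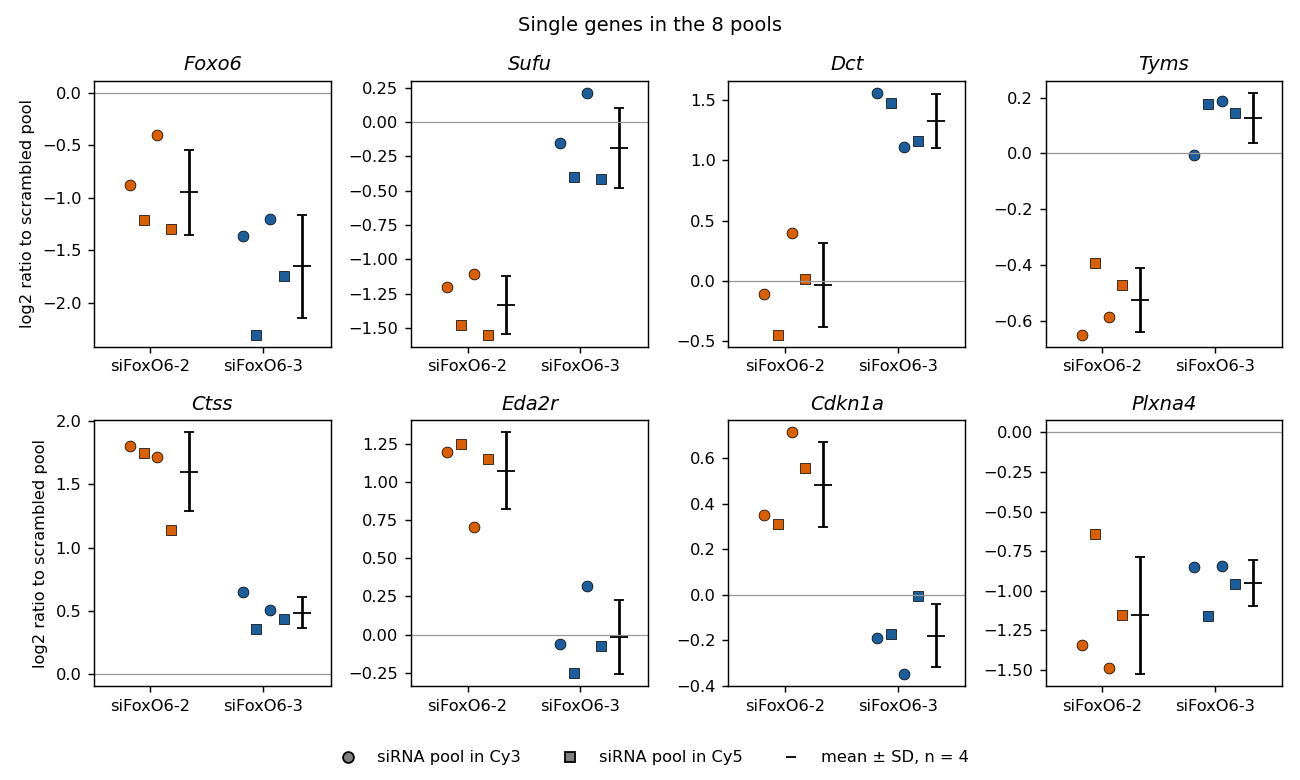
Log2 ratio to the scrambled pool (vertical axis, each panel on its own scale) of 8 genes in the 4 siFoxO6-2 and the 4 siFoxO6-3 pools, in replicate order, with the mean ± SD (n = 4) beside each group. Circles are pools labelled with Cy3 and squares pools labelled with Cy5; Sufu, Dct, Tyms, Ctss, Eda2r and Cdkn1a do not overlap between the siRNAs, and Foxo6 and Plxna4 do.

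Genes that cells use to copy their DNA stood higher with siFoxO6-3 almost throughout the list. Of 40 S phase genes measured, 38 had a positive difference and 25 had an unadjusted p under 0.05 in the higher direction (4.00% of all genes did so), against 0 in the lower, while 0 passed the adjusted threshold. The median difference was 0.42, against 0.00 over all genes, and 11 of the 40 did not overlap between the groups, all higher (2.09% of all genes did so). In the pools the list median was -0.48, -0.54, -0.52 and -0.37 with siFoxO6-2 and -0.14, 0.13, 0.11 and -0.21 with siFoxO6-3. All siFoxO6-2 pools lay below all siFoxO6-3 pools. The siFoxO6-2 pools were thus further from the scrambled pool than the siFoxO6-3 pools were. In pools of sorted cells, fewer cells of a kind and less RNA per cell cannot be told apart.

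The replicative helicase, which unwinds DNA at forks, showed it in several subunits. Mcm3 had -1.25, -1.48, -1.35 and -1.33 with siFoxO6-2 and -0.67, -0.34, 0.35 and -0.66 with siFoxO6-3, a difference of 1.02 (adjusted p = 0.3). Mcm2 differed by 1.01, Mcm6 by 0.82, Mcm5 by 0.65 and Mcm4 by 0.58. Mcm2, Mcm3 and Mcm6 did not overlap between the groups, and Mcm4 and Mcm5 did. The helicase loading factor Cdc6 (0.45), the replication initiation factor Mcm10 (0.73), the leading-strand polymerase Pole (0.71), the ribonucleotide reductase subunits Rrm2 (0.89) and Rrm1 (0.51), the S phase cyclin Ccne1 (0.51) and the transcription factor E2f1 (0.42) were all on the same side. Ccne1 overlapped between the groups, and its dimmer second probe differed by only 0.01. Uhrf1, which carries DNA methylation through replication, stood at -1.66, -1.56, -1.32 and -1.30 with siFoxO6-2 and -0.90, -0.61, -0.26 and -0.62 with siFoxO6-3 and differed by 0.86, with 0.85 on its second probe.

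Genes of G2 and mitosis were higher with siFoxO6-3 as well. Of 41 measured, 36 had a positive difference, 23 had an unadjusted p under 0.05, all in the higher direction, and 0 passed the adjusted threshold. Their median difference was 0.50, and 11 did not overlap, all higher. Over all genes, 4.00% had such a p and 2.09% did not overlap in that direction. The list medians were -0.12, -0.16, -0.18 and -0.09 with siFoxO6-2 and 0.27, 0.40, 0.44 and -0.10 with siFoxO6-3. Here siFoxO6-3 replicate 4 lay inside the siFoxO6-2 range and the other 3 siFoxO6-3 pools above it. The median was 0.23 among the Cy5 arrays and 0.57 among the Cy3 arrays, against 0.36 and 0.38 for S phase. Without siFoxO6-2 replicate 3 and siFoxO6-3 replicate 4 the medians were 0.51 for S phase and 0.58 for G2 and M phase. In that setting 30 and 29 members had an unadjusted p under 0.05. Over all 25310 genes and unnamed probes, 3167 had such a p there in either direction, against 1838 with every pool kept. The higher list counts thus came with a higher count over all genes.

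Prc1, which bundles the microtubules of the central spindle, had -0.85, -0.67, -1.10 and -0.81 with siFoxO6-2 and 0.08, 0.24, 0.45 and -0.37 with siFoxO6-3, a difference of 0.96 (adjusted p = 0.274). The groups did not overlap, and siFoxO6-3 replicate 4 was the nearest to siFoxO6-2. Ect2, which starts the contractile ring, differed by 1.00, the spindle assembly factor Tpx2 by 0.68 and the checkpoint kinase Bub1b by 0.69. Plk1, a kinase of mitotic entry and spindle assembly, had -0.59, -0.65, -0.31 and -0.59 with siFoxO6-2 and -0.12, 0.24, 0.18 and -0.12 with siFoxO6-3 (difference 0.58). Cdc25b, the phosphatase that activates Cdk1, differed by 0.63, Cdc20, an activator of the anaphase-promoting complex, by 0.53, and the kinase partners Cks2 and Cks1b by 0.73 and 0.70. The cyclins Ccna2 (0.85) and Ccnb2 (0.50) and the kinase Aurkb (0.57) overlapped because siFoxO6-3 replicate 4 was as low as the siFoxO6-2 pools.

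How far the second-brightest probes followed differed between the lists. Of 11 S phase genes with a second probe that exceeded the empty spots on every array, 11 second probes were positive, with a median of 0.28 against 0.43 on the main probes of those genes. Of 16 such G2 and M phase genes, 10 second probes were positive, with a median of 0.06 against 0.38. Over all 5667 genes with a second probe of this kind, 2669 second probes were positive. The sign was the same on both probes for 10 of the 11 S phase genes, 12 of the 16 G2 and M phase genes and 3336 of the 5667.

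**Figure D3:**
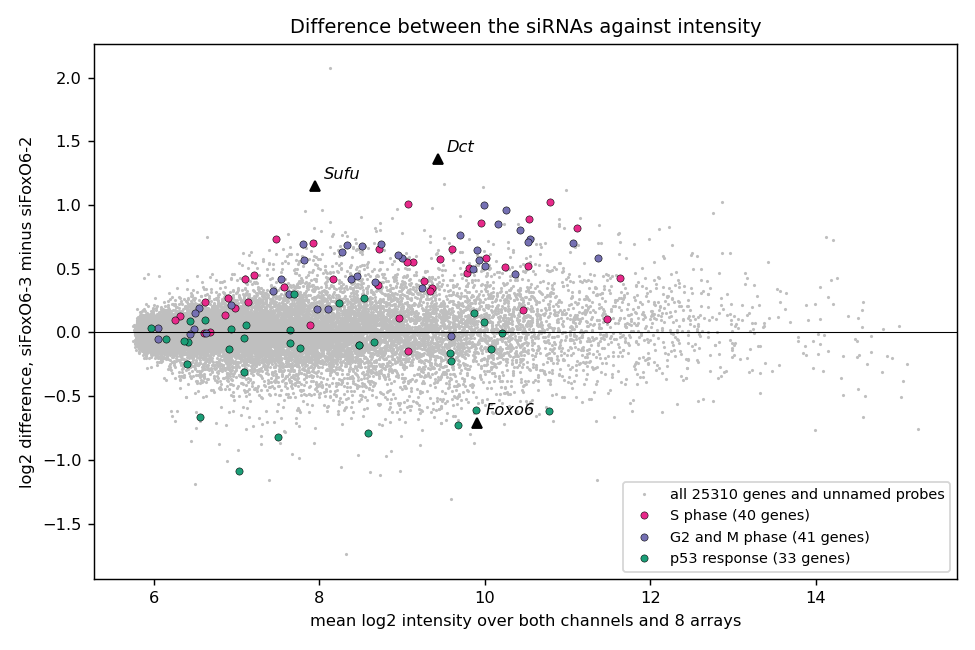
Log2 difference, siFoxO6-3 minus siFoxO6-2 (vertical axis), against mean log2 intensity over both channels and the 8 arrays (horizontal axis) for 25310 genes and unnamed probes (grey), with 40 S phase, 41 G2 and M phase and 33 p53 response genes in colour and Sufu, Foxo6 and Dct as triangles. Of the S phase genes 38 and of the G2 and M phase genes 36 lie above 0.

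Promoters of the cell cycle genes are shown because the members stood on one side together. The window was 300 bases around the annotated start, most of them upstream (RefSeq, GRCm38.p6), both strands were searched, and capitals mark every match. Searched were TTTGAA, the core of the cell cycle genes homology region through which late cell cycle genes are repressed in resting cells, CCAAT, bound by NF-Y, TTTGGCGC, an E2F site, and TGTTTAC, a forkhead site. Prc1 (chr7:80294201-80294500, plus strand) and Plk1 (chr7:122159185-122159484, plus strand) each held 1 TTTGAA and 1 CCAAT, and Mcm6 (chr1:128359656-128359955, minus strand) held 2 TTTGGCGC and 2 CCAAT.
Prc1: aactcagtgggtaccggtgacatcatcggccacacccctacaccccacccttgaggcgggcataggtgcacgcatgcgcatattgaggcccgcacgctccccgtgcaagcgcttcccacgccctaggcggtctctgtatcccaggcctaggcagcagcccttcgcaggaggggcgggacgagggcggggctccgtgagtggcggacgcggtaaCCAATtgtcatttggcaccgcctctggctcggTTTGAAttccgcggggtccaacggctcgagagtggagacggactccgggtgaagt
Plk1: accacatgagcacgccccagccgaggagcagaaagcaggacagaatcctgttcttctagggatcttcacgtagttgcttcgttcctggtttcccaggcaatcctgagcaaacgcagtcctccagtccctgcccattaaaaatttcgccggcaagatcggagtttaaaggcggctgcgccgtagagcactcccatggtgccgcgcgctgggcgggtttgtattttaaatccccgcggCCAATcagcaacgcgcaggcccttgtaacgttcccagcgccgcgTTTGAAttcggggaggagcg
Mcm6: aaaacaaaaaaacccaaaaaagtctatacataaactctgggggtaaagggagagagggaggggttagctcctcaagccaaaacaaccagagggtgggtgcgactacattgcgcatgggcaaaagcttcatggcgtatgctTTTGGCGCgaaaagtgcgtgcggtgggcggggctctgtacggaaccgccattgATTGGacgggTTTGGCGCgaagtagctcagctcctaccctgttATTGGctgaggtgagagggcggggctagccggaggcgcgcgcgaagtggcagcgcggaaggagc
TTTGAA was found in 25 of 34 G2 and M phase promoters (73.5%), in 3 of 29 S phase promoters (10.3%) and in 18.1% of all 27025 promoters. CCAAT was found in 73.5%, 62.1% and 37.9%, and TTTGGCGC in 0, 5 of 29 (17.2%) and 0.537%. The forkhead letters were in 2 of 34 G2 and M phase promoters (5.88%), in 0 of 29 S phase promoters and in 3.55% of all. These shares describe letters in the windows of the listed genes, whatever their values here.

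Markers of apical progenitors and radial glia, the dividing cells of the ventricular zone, followed in part. Of 29 measured, 26 had a positive difference and 8 had an unadjusted p under 0.05, all higher (4.00% of all genes did so). The median was 0.26 and 0 were called. Only 1 of the 29 did not overlap between the groups, on the higher side (2.09% of all genes did so). Pax6, a transcription factor of radial glia, stood at -0.41, -0.44, -0.46 and -0.26 with siFoxO6-2 and 0.07, -0.06, 0.51 and -0.05 with siFoxO6-3, without overlap (difference 0.51, adjusted p = 0.397), but a second Pax6 probe differed by -0.06. The receptor Notch1 differed by 0.42, the glutamate transporter Slc1a3 by 0.43, the intermediate filament Nes by 0.30 and Hopx by 0.53, all with overlap. In the pools, the list median was -0.20, -0.44, -0.21 and -0.21 with siFoxO6-2 and 0.02, -0.05, 0.21 and -0.40 with siFoxO6-3. siFoxO6-3 replicate 4 was again with the siFoxO6-2 pools.

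Genes of more advanced cells showed no shared direction. Intermediate progenitor and proneural genes had a median of 0.00 over 18 genes, with the transcription factor Insm1 (-0.55) and the somatostatin receptor Sstr2 (-0.55) lower with siFoxO6-3 in every pool and Eomes at 0.09. Neurod6, a transcription factor of cortical excitatory neurons, had 0.27, 0.61, 0.19 and 0.24 with siFoxO6-2 and 0.10, -0.31, -0.30 and -0.27 with siFoxO6-3 and a difference of -0.53 (adjusted p = 0.398). Tbr1 stood at -0.46 with overlap. The medians were -0.05 for 28 neuronal migration genes, 0.02 for 19 upper-layer and 0.02 for 19 deep-layer genes.

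**Figure D4:**
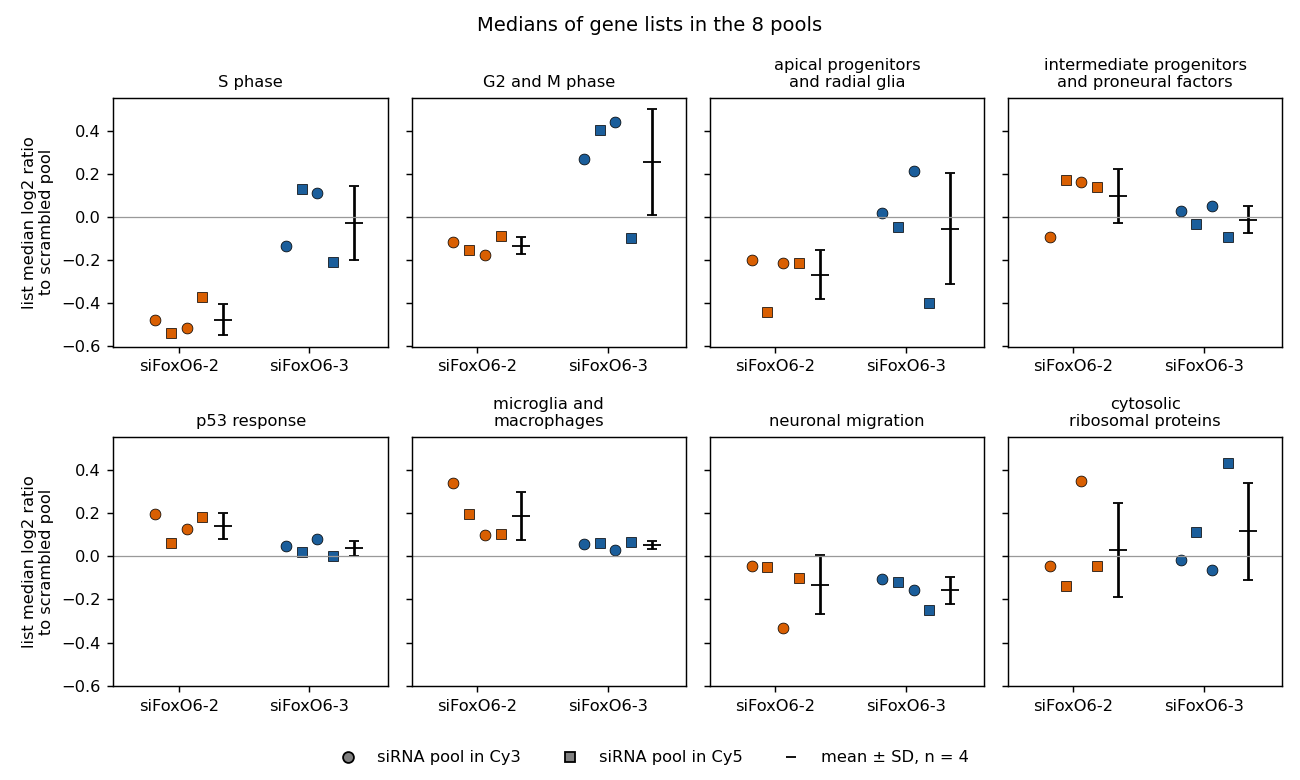
Median log2 ratio to the scrambled pool (vertical axis, the same in all panels) of 8 gene lists in the 4 siFoxO6-2 and the 4 siFoxO6-3 pools, with mean ± SD (n = 4); circles are pools labelled with Cy3, squares pools labelled with Cy5. S phase separates the siRNAs, G2 and M phase does so except for siFoxO6-3 replicate 4, and in the ribosomal list siFoxO6-2 replicate 3 and siFoxO6-3 replicate 4 stand above the rest.

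Among targets of p53, the transcription factor that halts division and can start apoptosis after damage, a subset stood higher with siFoxO6-2 and close to the scrambled level with siFoxO6-3. Of 33 measured, 7 had an unadjusted p under 0.05 in the lower direction (3.26% of all genes did so) and 0 in the higher, 6 did not overlap on the lower side (1.69% of all genes did so) and 1, Gdf15, on the higher, and 0 were called. The list median was only -0.07, so most members differed little. Eda2r, a death receptor of the TNF receptor family, had 1.20, 1.25, 0.70 and 1.15 with siFoxO6-2 and -0.06, -0.25, 0.32 and -0.08 with siFoxO6-3. The difference was -1.09 (SE 0.16, adjusted p = 0.216) on the 1 of its 3 probes that was above the empty spots on all 8 arrays, and -0.04 and -0.02 on the others. Cdkn1a, the cyclin-dependent kinase inhibitor p21, stood at 0.35, 0.31, 0.71 and 0.56 with siFoxO6-2 and -0.19, -0.17, -0.35 and -0.01 with siFoxO6-3, without overlap. Its difference was -0.66 (SE 0.11, adjusted p = 0.26), -0.52 and -0.80 within the orientations.

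Phlda3, an inhibitor of Akt (-0.82), Aen, an apoptosis-enhancing nuclease (-0.61, with -0.63 on its second probe), Ei24 (-0.73) and Bbc3, the BH3-only protein Puma (-0.31), were lower with siFoxO6-3 in every pool. The cyclin Ccng1 had 1.24, 0.96, 0.09 and 1.42 with siFoxO6-2 and 0.09, 0.09, 0.51 and -0.13 with siFoxO6-3, and siFoxO6-2 replicate 3 was the pool that overlapped. Trp53inp1 had 1.53, 1.23, -0.24 and 1.26 with siFoxO6-2 and 0.52, 0.31, 0.23 and 0.23 with siFoxO6-3, with the same pool apart, and without it differed by -1.04 (limma adjusted p = 0.0414). In Cdkn1a, Phlda3, Aen and Ei24, by contrast, siFoxO6-2 replicate 3 was the highest of all pools. Mdm2, the ubiquitin ligase of p53, was on the other side (0.23), as was the nucleotide reductase subunit Rrm2b (0.30), and the sestrins Sesn1 (-0.13) and Sesn2 (0.00) were near 0. Of 13 p53 genes with a second bright probe, 1 second probe was positive, and 9 of the 13 had the same sign on both. The median was -0.11 on the second probes against -0.08 on the main probes.

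Genes known as FoxO targets from other tissues were mixed. Of 44 measured, 3 were higher and 5 lower at an unadjusted p under 0.05 (6.82% and 11.4%, against 4.00% and 3.26% of all genes). Of these 44, 0 were called, and the median was -0.05. Txnip, an inhibitor of thioredoxin, had 0.63, 0.65, 1.09 and 0.80 with siFoxO6-2 and 0.07, 0.14, 0.37 and 0.13 with siFoxO6-3, a difference of -0.62 (adjusted p = 0.26), but its second probe differed by -0.06. Cdkn1a and Bbc3 belong to this list too, as do Ccng2 (-0.56) and the mTOR inhibitor Ddit4 (-0.27). The cell cycle inhibitor Cdkn2d (0.37), the pyruvate dehydrogenase kinase Pdk4 (0.27) and the transcription factor Klf4 (0.22) stood on the higher side. The FoxO paralogs differed by 0.12 (Foxo1, 0.23 on its second probe), 0.08 (Foxo3) and 0.04 (Foxo4).

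Plxna4 itself was at -1.34, -0.64, -1.49 and -1.15 with siFoxO6-2 and -0.85, -1.16, -0.84 and -0.95 with siFoxO6-3. All 8 pools were below 0, the siFoxO6-3 values lay inside the siFoxO6-2 range, and the difference was 0.20 (95% interval -0.21 to 0.62, adjusted p = 0.905). It was -0.16 in the Cy5 orientation and 0.57 in the Cy3 orientation, and a second Plxna4 probe gave -0.01. Foxo6 was lower on average with siFoxO6-3 and Plxna4 was not, but neither difference passed the threshold. The plexins Plxna1 (-0.07), Plxna2 (-0.35) and Plxna3 (-0.15) and the co-receptors Nrp1 (-0.09) and Nrp2 (-0.17) overlapped between the groups. Of 31 plexin, semaphorin and neuropilin genes, 1 was higher and 1 lower at an unadjusted p under 0.05 (4.00% and 3.26% of all genes). For Nrp1, a second probe nearly as bright differed by -0.77.

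Genes that stood far from the scrambled pool with one or both siRNAs were also set against each other. Hmga2 (0.39), Pbx3 (0.50), Pik3ca (0.48), Exoc5 (0.70), Egr1 (0.72), Lrrc7 (-0.23), Csmd1 (0.05), Rnf213 (-0.16), Rad23b (-0.39) and Ddr1 (-0.57) overlapped between the siRNAs, and none was called. Second probes above the empty spots on all 8 arrays had the opposite sign for Pik3ca (-0.47), Exoc5 (-0.21) and Rad23b (0.03). Ddr1, a collagen receptor kinase, had 1.78, 0.76, 1.99 and 0.93 with siFoxO6-2 and 1.29, 0.49, 1.00 and 0.40 with siFoxO6-3, where the dye orientation separated the pools more than the siRNA did. Its dye-adjusted interval was -0.83 to -0.32 (adjusted p = 0.274).

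Markers of microglia and macrophages, which belong to a cell type that the sorted pools could hold, were set beside these values. Of 26 measured, 6 were lower with siFoxO6-3 at an unadjusted p under 0.05 (3.26% of all genes were) and 0 higher, 8 differences were positive, 0 were called and the median was -0.14. It was -0.05 among the Cy5 arrays and -0.20 among the Cy3 arrays, and over the 6 genes with a second bright probe the second probes had a median of -0.02 against -0.21 on the main probes. Besides Ctss the 6 were lysozyme Lyz2 (-0.72, -0.01 on its second probe), Aif1 (-0.29), the CSF1 receptor Csf1r (-0.57, 0.05 and 0.00 on its other probes), Pf4 (-0.44) and Itgam (-0.22). The list median was 0.34, 0.19, 0.10 and 0.10 with siFoxO6-2 and 0.06, 0.06, 0.03 and 0.06 with siFoxO6-3, and all siFoxO6-2 pools were above all siFoxO6-3 pools. The complement genes C1qa (-0.02), C1qb (0.11) and C1qc (0.08) and the microglial genes Tmem119 (0.01), Cx3cr1 (0.09) and P2ry12 (-0.24) had differences of either sign and were not among the 6. The part of such cells in the Ctss and p53 values was not tested.

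Of other cell types, Cajal-Retzius, meningeal and choroid plexus cells had a median of -0.12 over 18 genes, 14 of them negative. At an unadjusted p under 0.05, 2 were lower and 1 higher (3.26% and 4.00% of all genes). Endothelial cells and pericytes had a median of -0.04 over 23 genes. Vtn (-0.44), Kcnj8 (-0.35) and Abcc9 (-0.20) were lower at that p (3.26% of all genes were) and 0 were higher. Vtn and Abcc9 did not overlap, which held for 1.69% of all genes on the lower side. Abcc9 was above the empty spots in 4 siFoxO6-2 pools and 1 siFoxO6-3 pool. None of these was called. Medians were 0.00 over 14 erythroid genes, -0.01 over 21 interneuron genes and 0.03 over 18 genes of the oligodendrocyte and astrocyte lineage, where Scrg1 and Mbp (0.47, a myelin protein gene) stood on the higher side. Interferon response genes, which respond to double-stranded RNA, had a median of -0.05 over 38 genes, with 0 higher and 3 lower at that p (4.00% and 3.26% of all genes). The siRNA and microRNA machinery had 0.01 over 23 genes and 0 at that p.

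Ribosomal protein genes had a median of 0.21 over 37 genes, and the sign turned with the orientation, 0.45 in Cy5 and -0.26 in Cy3. In the pools the list stood at -0.05, -0.14, 0.35 and -0.05 with siFoxO6-2 and -0.02, 0.11, -0.07 and 0.43 with siFoxO6-3. siFoxO6-2 replicate 3 and siFoxO6-3 replicate 4, the pools that stood apart and had the lowest siRNA-channel signals, were the high ones. Respiratory chain genes did the same (0.35 and -0.10, 55 genes).

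**Figure D5:**
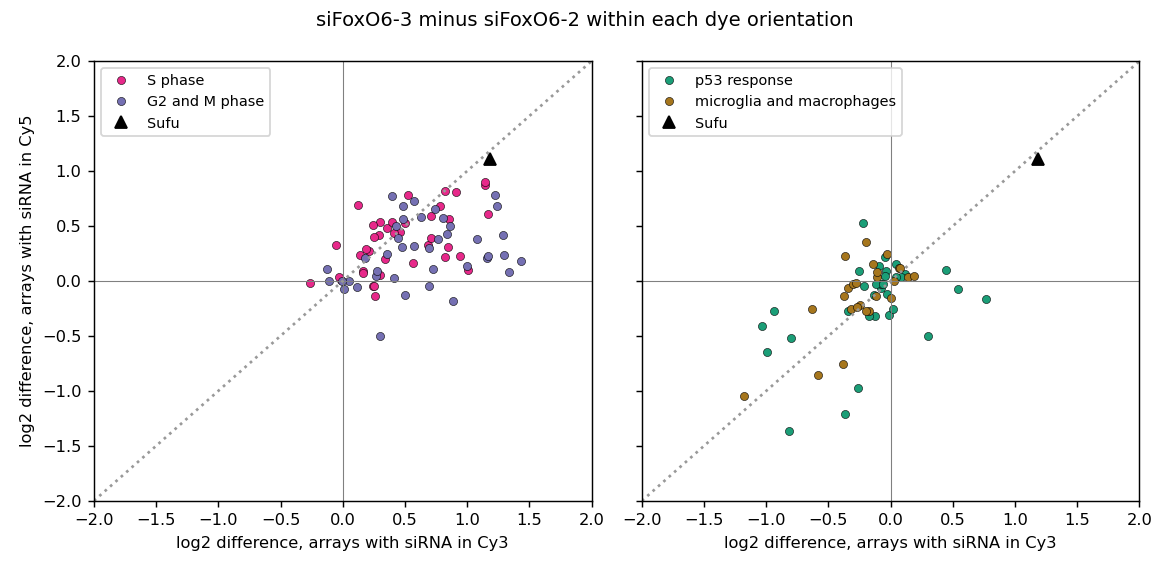
Log2 difference, siFoxO6-3 minus siFoxO6-2, of each gene within the 4 arrays with the siRNA pool in Cy3 (horizontal axis) and within the 4 with it in Cy5 (vertical axis), for S phase and G2 and M phase genes (left) and p53 response and microglia and macrophage genes (right); the dotted line marks equal values. Sufu lies near the line at 1.19 and 1.11, the G2 and M phase genes lie mostly below it (medians 0.57 and 0.23), and most S phase genes are positive in both.

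Sex-linked transcripts were unevenly spread over the pools, although 0 of the 4 X inactivation and Y-linked genes measured had an unadjusted p under 0.05 between the siRNAs or kept the groups apart. Xist, the RNA of the inactive X chromosome, stood at -3.31, 1.58, -2.43 and -3.23 with siFoxO6-2 and -3.15, 0.94, 1.80 and 1.32 with siFoxO6-3, and the Y-linked gene Eif2s3y at 1.35, -3.23, 0.33 and 1.20 with siFoxO6-2 and 1.33, -3.65, -3.08 and -1.92 with siFoxO6-3. siFoxO6-2 replicates 1, 3 and 4 and siFoxO6-3 replicate 1 were low in Xist and high in Eif2s3y, and the other 4 pools were the reverse. The difference was 2.07 for Xist (adjusted p = 0.84) and -1.74 for Eif2s3y (adjusted p = 0.866). These were the highest and the lowest difference of all 25310 genes and unnamed probes. The part of this uneven split of the pools in the other differences was not tested.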

How the data were processed

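Two-colour arrays measured messenger RNA in 8 pools of sorted cortical cells, 4 per siRNA, each against 1 scrambled reference pool. Per the file headers, the deposited scanner output holds for each spot the mean and median pixel intensity in both channels beside a local background intensity, uncorrected. A table deposited by the authors gives log2 ratios of the siRNA over the reference channel per spot; how it was made was not given in the sources used here, and it served as an alternative.

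Background correction of mean intensities used normexp (offset 50), and loess normalization ran within arrays (limma 3.58.1, R 4.3.3), control spots at weight 0. Loess removes any shift shared by most genes of an intensity. The brightest probe stood for each of 18322 gene symbols, and 6988 probes without a symbol were tested singly. lmFit and eBayes fitted 1 coefficient per siRNA, signed by dye, and a dye term per gene, with 5 residual degrees of freedom. The contrast was siFoxO6-3 minus siFoxO6-2, two-sided, with Benjamini-Hochberg adjustment over 25310 tests and a threshold of 0.05. Printed pool values are log2 ratios with the dye effect left in; differences are fitted. Empty means not exceeding the 97.5th percentile of 959 empty control spots. The procedure was tested on simulated data.

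The 28 gene lists were matched by symbol (698 entries), by synonym (20) or not at all (73). The comparison, the named genes and the lists were chosen with earlier results of these data known. Named were called genes with a symbol and intensity at or above the median, filled to 8 per direction by the smallest p, the FoxO, plexin A and neuropilin genes, genes noted earlier for one siRNA, and up to 4 members per list by p; further list members and the Hedgehog genes were added after their values were seen. Pairs of equal replicate number had residual correlations of 0.36, -0.17, -0.32 and -0.54, of differing sign. With so few pools these values cannot exclude a pairing by number, and the main fit used none. The labels call the pools independent without saying what that covers, so p-values measure the spread between these pools.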

Additional observations from a re-analysis of the deposited data

Results flagged for a closer look

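Sufu had the 1 difference between the siRNAs that passed the adjusted threshold, 1.15 on the log2 scale, and it rested on 1 of its 3 probes. Pools that stood apart were searched for on ratios with the dye effect left in, and many of the genes had been chosen by small p. The count that follows therefore cannot be set against a chance rate. In 15 of 256 groups of 4 pools, 1 pool stood apart from the other 3 beyond Dixon's 95% critical value. In siFoxO6-3 these were replicate 2 for Atp6v1h (-0.19, the others -0.39 to -0.36) and Lyz2 (0.038, the others 0.63 to 0.74), replicate 1 for Neurod6 (0.10, the others -0.31 to -0.27), replicate 3 for Stard4 (0.0013, the others -0.43 to -0.36), Rgs8 (-0.069) and Hmga2 (-0.49, the others -1.23 to -1.16), and replicate 4 for Scrg1 (1.50, the others 0.97 to 0.98) and the median of cholesterol synthesis genes (-0.35, the others -0.09 to -0.04). In siFoxO6-2 they were replicate 4 for Ctss (1.14, the others 1.71 to 1.80) and Ptgds (0.10), replicate 2 for Scrg1 (-0.053) and the median of apical progenitor genes (-0.44, the others -0.21 to -0.20), replicate 3 for Hist1h2ad (-0.27, the others -0.86 to -0.77), and replicate 1 for the medians of intermediate progenitor genes (-0.091, the others 0.14 to 0.17) and of oligodendrocyte and astrocyte genes (0.10).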

How the results depend on the processing

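The number of genes called, 1 in the report, was 2 without background correction, 20 with array weights (Sufu, Tyms, Dct, Ctss and Eda2r among them) and 0 by limma with median pixel intensity (1911 at an unadjusted p under 0.05), median centring (150), no dye term (1714), a replicate block (1870), the deposited log2 table (1786), the mean of probes (1808), every probe by itself (2789), a trended robust variance (1807), within the Cy5 (2118) or Cy3 arrays (1481), and without siFoxO6-2 replicate 3 and siFoxO6-3 replicate 4 together (3167), a setting chosen after seeing the data. Leaving out 1 pool gave 0 to 4 calls, 4 without siFoxO6-2 replicate 3, and 0 (limma, 1405, 1524, 1972, 1491 and 1805 at an unadjusted p under 0.05) without siFoxO6-2 replicate 1 or 2 or siFoxO6-3 replicate 1, 2 or 4. Whether the replicate numbers pair the pools could not be settled from the residual correlations. Foxo6 kept its sign and stayed uncalled in all 23 settings (-0.81 to -0.58, adjusted p from 0.115 to 1), and Sufu kept its sign (0.36 to 1.27, adjusted p from 0.0138 to 1). The S phase median ran from 0.32 to 0.51 and the G2 and M phase median from 0.23 to 0.58. Some differences changed sign: within the Cy3 arrays Egr1 (-0.12), Plxna2 (0.18), Nrp1 (0.16) and Csmd1 (-0.027), within the Cy5 arrays Plxna4 (-0.16) and Foxo3 (-0.022), with array weights Foxo4 (-0.014) and Csmd1 (-0.17), and with both of the pools that stood apart left out Csmd1 (-0.37). Leaving out 1 pool at a time gave -0.54 to 0.024 for Plxna2 (positive without siFoxO6-2 replicate 2), -0.14 to 0.0080 for Plxna1 (positive without siFoxO6-3 replicate 1), -0.0068 to 0.10 for Foxo4 (negative without siFoxO6-2 replicate 3), -0.19 to 0.075 for Nrp1 (positive without siFoxO6-2 replicate 2) and -0.15 to 0.21 for Csmd1 (negative without siFoxO6-2 replicate 2 or 3 or siFoxO6-3 replicate 3 or 4). The cause was not tested. With 4 pools per siRNA, a typical gene's difference is known to about 0.19 on the log2 scale either way.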

Other observations

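Clustered histone genes were higher with siFoxO6-3 for 19 of 24 measured, 6 of them at an unadjusted p under 0.05 and 1 lower (4.00% and 3.26% of all genes), with a median of 0.11 and 0 calls by limma. Besides the linker histone Hist1h1c, these included Hist2h2aa1 (0.85), Hist1h2ad (0.60), Hist1h2bc (0.48) and Hist1h4i (0.33), and Hist1h3d stood at -0.31. Hist2h2aa1 differed by 1.47 in the Cy5 arrays and 0.24 in the Cy3 arrays, and Hist1h2ad by 1.04 and 0.16, both with overlap. Hist1h4i differed by 0.41 and 0.25, without overlap. Probes of such near-identical genes can share signal. Among 28 glycolysis and hypoxia genes, 5 were higher and 2 lower at an unadjusted p under 0.05 (4.00% and 3.26% of all genes): lactate dehydrogenase Ldha (0.62), hexokinase Hk2 (0.59), pyruvate kinase Pkm2, now Pkm (0.57), triose phosphate isomerase Tpi1 (0.51) and the glucose transporter Slc2a3 (0.25) on one side, the oxygen sensor Egln1 (-0.40) and Ddit4 (-0.27) on the other. None was called, and Ldha, Slc2a3, Egln1 and Ddit4 did not overlap between the siRNAs, which 2.09% of all genes did on the higher and 1.69% on the lower side. Pkm2 differed by 0.88 in the Cy5 arrays and 0.27 in the Cy3 arrays, and Tpi1 by 0.74 and 0.27. The mean over all probes was 0.19 for Pkm2 and 0.23 for Tpi1, and the second Egln1 probe differed by -0.01. The list median was 0.13 in the Cy5 and -0.02 in the Cy3 arrays.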
